A study of Mus musculus with 51 samples.

Results

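The genes of this account are 10 transcription factors of the AP-1 and immediate early class, measured in a mouse cell line that was pushed towards fat cell formation. They are Fos, Fosb, Fosl1 and Fosl2 of the Fos family, Jun, Junb and Jund of the Jun family, the zinc finger factors Egr1 and Egr2, and Atf3. They were listed by symbol and matched to Ensembl identifiers, 10 of the 53801 genes in the count table. All 10 were among the 17015 genes with enough counts to be tested. The cells were C3H/10T1/2-SAM, a line of mesenchymal origin with the capacity to turn into adipocytes, and every library, controls included, came from cells that carry dCas9-VP64 and MS2-P65-HSF1, which switch on a gene at the promoter a guide RNA points to. Cells received the Empty Vector plasmid (EV), a plasmid with a guide for Pparg (P), or plasmids with guides for Pparg and Ybx1 (PY), 250 ng of DNA in each case. Rosiglitazone, a drug that activates PPARG, was added at 5 µM to all cells, EV included, 48 hours after transfection, which is day 0. RNA was taken on days 0, 2 and 4. The labels do not state whether day 0 RNA was taken before or after the drug was added. Day, time since transfection and exposure to the drug therefore move together and cannot be told apart. There were 51 libraries in 9 groups of 5 or 6, and each library of a group came from another of 6 experiments. This is 1 line in culture, and every experiment repeats it rather than adding an animal.

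AP-1 is a dimer that a Fos protein forms with a Jun protein, or that Jun proteins form with each other, through paired leucine zippers. It binds DNA and switches genes of growth, inflammation and matrix turnover. Fos, Fosb, Jun, Junb, Egr1, Egr2 and Atf3 are known as immediate early genes, which are transcribed within minutes of serum, growth factor or stress signals without the need for new protein and then fall again. In cells on the way to becoming fat cells, such genes are known for a short burst at induction, and AP-1 activity is known as a feature of the precursor state.

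The starts of these genes are shown because short elements near them bind the factors that answer such signals. RefSeq promoters (build GRCm38.p6) were at hand for 8 of the 10 genes, in 12 windows. Fosl1 and Egr1 had no window and were not searched. The starts are those of RefSeq and can differ from the gene bounds given below. For Jund the start used, 70697739, lies before these bounds, and for Atf3, 191183333, it lies inside them. The 4 windows printed are the 150 bases before a RefSeq start of Fos, Jun, Junb and Egr2, each 5′ to 3′ on the gene's strand. Egr2 has several such starts. The window printed for it precedes the start at 67537869, inside the gene bounds given below. The Egr2 window before the start at 67535499 held none of the motifs searched. Capitals mark TGACG or its reverse complement CGTCA, TGACNTCA in Jun, and a CArG box in Egr2.
Fos promoter, chr12:85473740-85473889, plus strand: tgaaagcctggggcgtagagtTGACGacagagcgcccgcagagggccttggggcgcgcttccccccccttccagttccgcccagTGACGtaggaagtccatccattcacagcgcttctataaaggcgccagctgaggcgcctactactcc
Jun promoter, chr4:95052223-95052372, minus strand: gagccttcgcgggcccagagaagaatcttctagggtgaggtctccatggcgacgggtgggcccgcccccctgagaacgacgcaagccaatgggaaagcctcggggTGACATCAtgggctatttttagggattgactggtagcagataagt
Junb promoter, chr8:84978749-84978898, minus strand: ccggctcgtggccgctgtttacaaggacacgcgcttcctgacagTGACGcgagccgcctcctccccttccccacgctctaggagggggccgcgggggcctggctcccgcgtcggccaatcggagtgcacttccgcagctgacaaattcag
Egr2 promoter, chr10:67537719-67537868, plus strand: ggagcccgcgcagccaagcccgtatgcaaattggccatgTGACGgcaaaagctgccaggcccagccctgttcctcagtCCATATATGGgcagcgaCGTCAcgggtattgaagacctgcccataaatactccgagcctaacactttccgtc
In the 250 bases before each start, the AP-1 site TGANTCA was found in 0 of the 8 genes on either strand, and in 7.82% of all 27025 genes with a promoter in the table. The longer TGACGTCA was found in 0 of them and in 1.77% of all genes. The CArG box, which binds serum response factor, was found in Egr2 alone of the 8 genes and in 1.62% of all genes. By window, 4 of the 12 held it, all of Egr2, against 1.47% of all 32851 windows. Several of these Egr2 windows overlap and hold the same CCATATATGG, so they are not separate sites. TGACNTCA and TGACG were added to the search after these promoters had been read. TGACNTCA, which differs from TGACGTCA by a free base in the middle, was found in Jun and in 8.55% of all genes. TGACG, which lies within TGACGTCA and can overlap TGACNTCA, was found in Fos, Fosb, Junb, Egr2 and Atf3 and in 19.8% of all genes. These are matches of letters in a short window and say nothing of what binds there.

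Total counts ran from 3.38 M to 115 M per library, with a median of 22.4 M, and the lowest count of any of the 10 genes in any library was 3. Levels are given in CPM, a gene's count scaled to the effective size of its library. The targeted genes matched the labels: Pparg lay between 41.7 and 76.6 CPM in the EV libraries and between 104 and 506 CPM in the P and PY libraries, and Ybx1 between 415 and 886 CPM in EV and P and between 1364 and 2855 CPM in PY. The 9 mesenchymal markers summed to between 8004 and 21231 CPM over all libraries, and none was at 0 throughout a group. The 6 fat cell markers summed to a median of 15.4 CPM in EV on day 0 and 67.6 CPM on day 4, and to 102 and 4229 CPM in P. Sums stayed at or below 16.7 CPM for the 6 macrophage markers (3 with enough counts to be tested), 49.0 CPM for the 5 endothelial markers (3) and 16.0 CPM for the 5 epithelial markers (4). Adgre1 was at 0 in every library of PY day 0 and EV day 4, Cdh5 and Emcn in PY day 2 and Epcam in P day 4. Endothelial sums had medians of 14.9 CPM on day 0 and 36.3 CPM on day 4 in EV, and their part in the results was not tested. In bulk RNA, fewer cells that express a gene and less RNA per cell cannot be told apart.

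From day 0 to day 4, 9 of the 10 factors fell in EV, in P and in PY, and Jund, alone among them, did not pass. The falls ran from 1.76-fold for Fosl2 in EV to 14.9-fold for Fosl1 in P and 14.1-fold for Atf3 in EV. In edgeR's quasi-likelihood test with Benjamini-Hochberg adjustment over all 17015 genes, a gene passed at an adjusted p under 0.05. The share of all genes that passed with a lower level was 14.9% in EV, 18.6% in P and 17.8% in PY. The 10 genes were chosen with earlier results of these data known, so setting them beside this share is no test of the set. The median log2 change of the 10 genes was -2.13 in EV, -2.29 in P and -2.26 in PY, against 0.02, -0.003 and -0.008 for all genes. Libraries of day 4 lay wholly below those of day 0 for 6 of the 10 genes in EV, 7 in P and 3 in PY, and this held for 6.32%, 7.83% and 5.03% of all genes.

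By day 2 part of the drop was made, with a median log2 change of the 10 genes of -1.27 in EV, -1.59 in P and -1.79 in PY. In EV, 4 of the 10 passed as lower on day 2 than on day 0 (Fos, Fosb, Fosl2 and Atf3), where 4.43% of all genes did. In P, 7 passed, all but Fosl1, Egr2 and Jund, against 6.98% of all genes. In PY, 9 passed, all but Jund, against 11.4% of all genes. With the experiment as a replicate block, 9 passed in each of the 3, all but Jund, against 11.8%, 14.7% and 18.3% of all genes. The EV count rests on single libraries: it was 1 without EV day 0 replicate 4, 8 without EV day 0 replicate 3 and 7 without EV day 2 replicate 4, and 2 without EV day 0 replicate 2 or EV day 2 replicate 1, 2, 3 or 5. It was 0 without experiment 2, 1 without experiment 5, 2 without experiment 1 or 6, and 7 without experiment 3. The P count was 1 without experiment 5. Between day 2 and day 4 edgeR passed 0 of the 10 in each transfection, and DESeq2 passed 0 too. At an unadjusted p under 0.05, 4 of the 10 were lower in EV, 5 in P and 1 in PY, against 8.42%, 9.1% and 3.44% of all genes at that threshold. At the adjusted threshold, the share of all genes that passed as lower from day 2 to day 4 was 0.00588% in EV, 0.723% in P and 0% in PY. With the block, Fosl1, Junb, Egr1 and Atf3 passed as lower in EV and in P, where 9.74% and 10.2% of all genes did, and Fosl1 in PY, where 3.1% did. In P, 1 gene, Fosl1, also passed without the block once P day 4 replicate 4 or experiment 4 was left out.

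**Figure D1:**
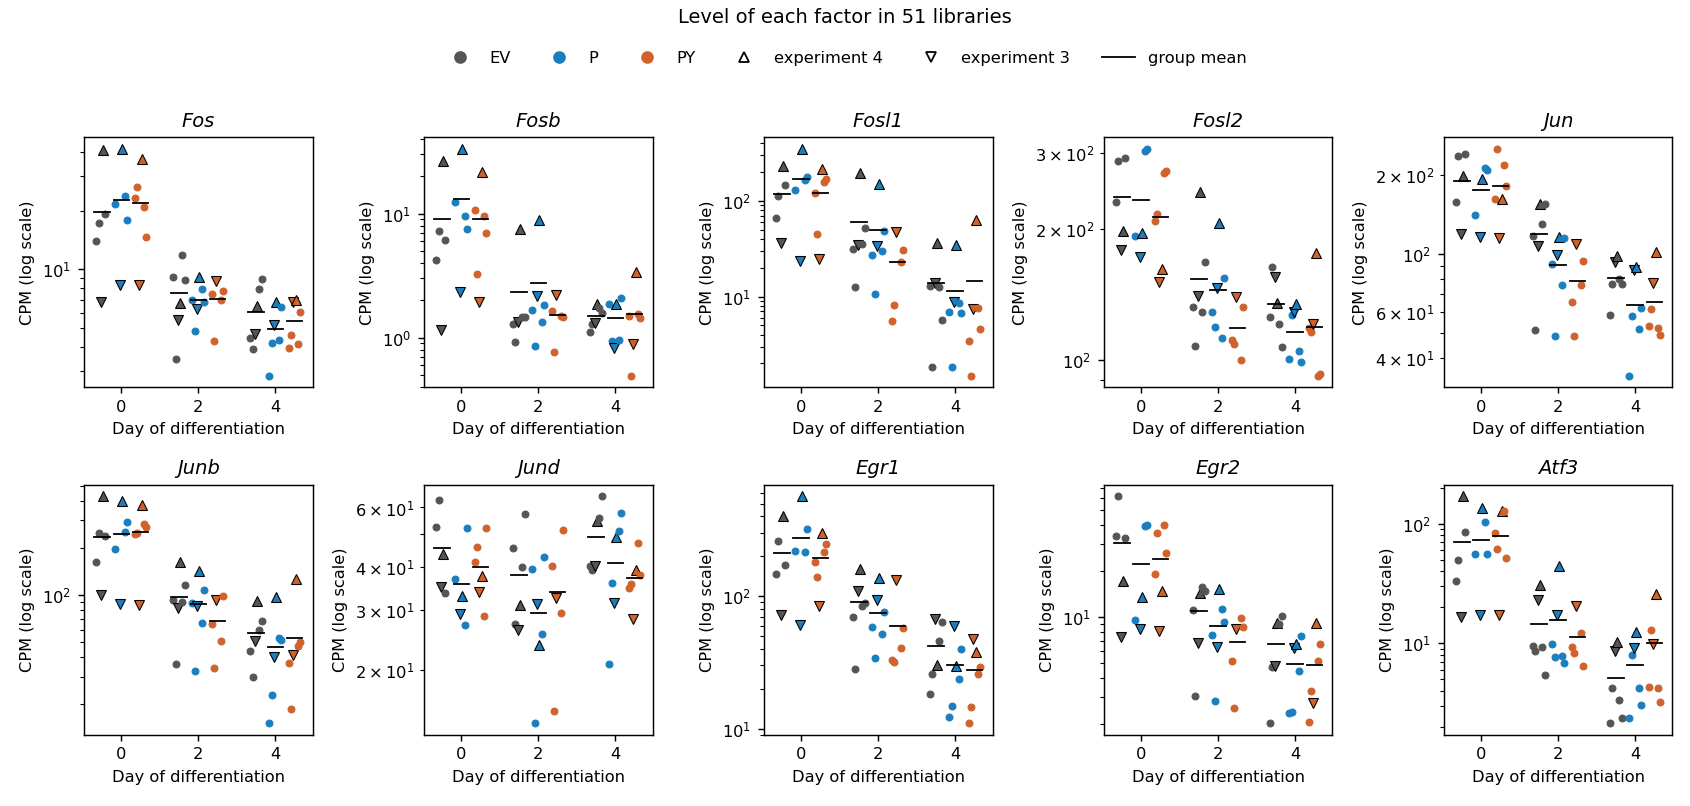
CPM of each of the 10 factors on a log axis by day, with 1 point per library, coloured by transfection, and bars at the group means. Triangles mark libraries of experiments 4 (up) and 3 (down). Jund stays between 13.9 and 64.7 CPM throughout, while the other genes step down from day 0 to day 4.

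**Figure D2:**
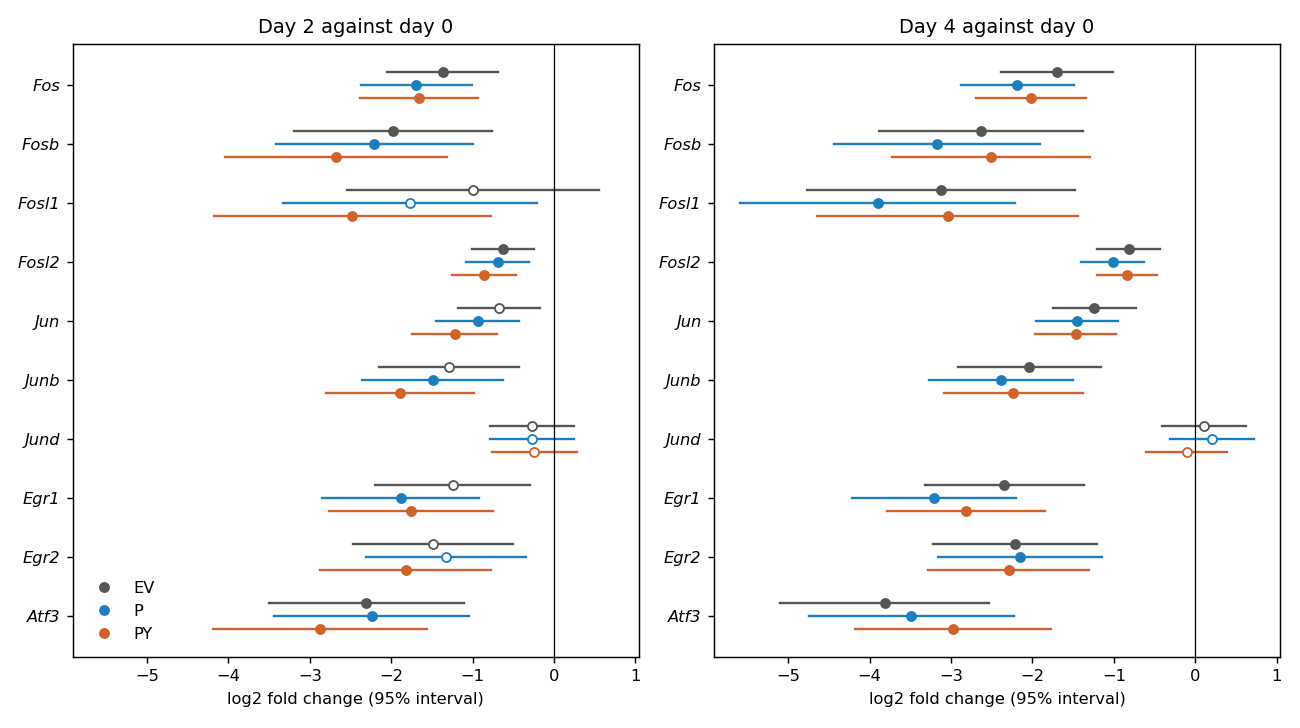
Log2 fold change of each factor on day 2 and on day 4 against day 0, with 95% intervals, in EV, P and PY. Filled points passed at an adjusted p under 0.05 in edgeR. On day 4 every gene but Jund is filled in all 3 transfections, and the point estimates run from -0.82 for Fosl2 in EV to -3.90 for Fosl1 in P.

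The Fos family supplies the partners that cannot form AP-1 without a Jun protein. Fos (ENSMUSG00000021250, GRCm38 chromosome 12, 85473890 to 85477273, plus strand) encodes the family's namesake. Its promoter printed above holds TGACG at 129 and at 66 bases before the start. In EV on day 0, Fos stood at 13.9, 17.2, 6.77, 40.8 and 19.2 CPM in the 5 libraries. On day 4 in EV the lowest, median and highest of 6 libraries were 3.93, 5.59 and 8.97 CPM. The day 0 library of experiment 3, at 6.77 CPM, lies within the day 4 range, so the days overlap. The fall was 3.24-fold (95% interval 2.01 to 5.23, adjusted p = 0.000234 in edgeR), in 5 of 5 experiments. In P, Fos went from 21.5, 8.31, 41.5, 23.7 and 18 CPM on day 0 to a range of 2.84 to 6.78 CPM around a median of 4.75 on day 4, with no overlap. That fall was 4.55-fold (edgeR adjusted p = 4.46e-06). In PY the range went from 8.35 to 37.0 CPM (median 22.1) to 3.94 to 6.99 CPM (median 5.31), 4.05-fold lower (edgeR adjusted p = 6.89e-06). Most of the fall in Fos had been made by day 2, when the group means were 7.61 ± 2.99 CPM in EV (SD, n = 6), 6.98 ± 1.47 in P (n = 6) and 7.07 ± 1.67 in PY (n = 5).

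Fosb (ENSMUSG00000003545, chromosome 7, 19302696 to 19310051, minus strand) encodes a close relative of Fos and was the scarcest of the 10, with 3 to 1515 counts per library. In EV on day 0 it stood at 4.21, 7.25, 1.16, 26.5 and 6.09 CPM, and the library of experiment 4, at 26.5 CPM, was far above the others. On day 4 the EV libraries lay between 1.11 and 1.88 CPM with a median of 1.45, and the days overlapped only through the library of experiment 3. The fall was 6.18-fold (edgeR adjusted p = 0.00138). It was smaller, 3.24-fold, when EV day 0 replicate 4 was left out (edgeR adjusted p = 0.0391), and 3.5-fold without experiment 4. In P it went from 12.5, 2.34, 33.2, 9.48 and 7.44 CPM to a range of 0.828 to 2.10 CPM, with no overlap, 9.0-fold lower (edgeR adjusted p = 0.000111). This P value was 5.52-fold without P day 0 replicate 3, the library of experiment 4, and 5.96-fold without experiment 4. PY fell 5.70-fold (edgeR adjusted p = 0.000955), from a median of 8.31 to 1.47 CPM. On day 2 Fosb was 3.94-fold lower in EV, 2.06-fold without EV day 0 replicate 4 (edgeR adjusted p = 0.361). Leaving out EV day 2 replicate 4 gave 7.06-fold. It was 4.62-fold lower in P, 2.83-fold without P day 0 replicate 3 (edgeR adjusted p = 0.106) and 8.27-fold without P day 2 replicate 4.

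Fosl1 (ENSMUSG00000024912, chromosome 19, 5447547 to 5455946, plus strand) encodes FRA1, a Fos protein without the strong activating end of Fos. It had the widest range of the 10 over the 9 groups, 4.23 on the log2 scale of group means. In EV on day 0 it stood at 66.2, 112, 36.2, 234 and 147 CPM. On day 4 the EV libraries ran from 1.83 to 36.1 CPM with a median of 12.6, and even the highest lay just below the lowest of day 0. The fall was 8.70-fold (95% interval 2.79 to 27.2, edgeR adjusted p = 0.00334), in 5 of 5 experiments. Leaving out EV day 4 replicate 4 gave 13.2-fold. P fell from 129, 23.7, 351, 167 and 179 CPM to between 1.84 and 34.9 CPM (median 7.81), where experiments 3 on day 0 and 4 on day 4 overlap. That was 14.9-fold (edgeR adjusted p = 0.000305). Leaving out P day 4 replicate 4 gave 26.0-fold. PY fell from between 24.5 and 214 CPM (median 140.0) to between 1.48 and 63.2 CPM (median 5.97), 8.23-fold (edgeR adjusted p = 0.0022). The PY value was 24.4-fold without PY day 4 replicate 4, 20.9-fold without experiment 4 and 13.7-fold with the block. On day 2 Fosl1 did not pass in EV (log2 -0.99 ± 0.77, SE) or P (-1.77 ± 0.78), with edgeR adjusted p of 0.487 and 0.123, and its adjusted p with the block was 0.00998 and 0.00283. Of its exonic bases, 1163 are shared with Ccdc85b on the opposite strand, which stood at 7.12 ± 1.97 CPM on day 0 in EV and 8.60 ± 1.66 CPM on day 4, while Fosl1 fell.

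Fosl2 (ENSMUSG00000029135, chromosome 5, 32135801 to 32157842, plus strand), which encodes FRA2, had the smallest fall of the 9. In EV it stood at 231, 287, 179, 198 and 291 CPM on day 0 and between 107 and 164 CPM on day 4 (median 130.4), with no overlap, a fall of 1.76-fold (95% interval 1.35 to 2.30, edgeR adjusted p = 0.00118). In P it went from 192, 172, 196, 303 and 306 CPM to between 98.8 and 135 CPM, again without overlap, 2.02-fold lower (edgeR adjusted p = 5.5e-05). PY fell 1.79-fold (edgeR adjusted p = 0.000324), in 5 of 6 experiments. The spread of Fosl2 was also small, with an SD of 51 CPM around a mean of 237 CPM in EV on day 0, where Fosl1 had 76.8 around 119.

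The Jun family can form AP-1 with Fos proteins or among themselves. Jun (ENSMUSG00000052684, chromosome 4, 95049034 to 95052222, minus strand) encodes the main activating partner, and its printed promoter holds TGACATCA at 45 to 38 bases before the start. In EV it stood at 158, 235, 119, 197 and 239 CPM on day 0 and between 58.6 and 97.9 CPM on day 4 (median 78.4). The days did not overlap, and the fall was 2.36-fold (95% interval 1.66 to 3.35, edgeR adjusted p = 0.000267). In P the 5 libraries of day 0, at 141, 115, 193, 213 and 209 CPM, all lay above the day 4 range of 34.2 to 89.0 CPM, 2.74-fold (edgeR adjusted p = 1.93e-05). PY fell 2.77-fold (edgeR adjusted p = 7.23e-06), from between 115 and 251 CPM to between 48.8 and 101 CPM, without overlap. Jun and the antisense gene Junos share 232 exonic bases, and Junos stood at 2.76 ± 0.54 CPM on day 0 and 1.70 ± 0.30 CPM on day 4 in EV, far below Jun.

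Junb (ENSMUSG00000052837, chromosome 8, 84974484 to 84978718, minus strand) encodes a Jun protein that can dampen Jun at shared sites. It stood at 163, 250.3, 99.7, 428 and 239.7 CPM on day 0 in EV and between 30.1 and 91.8 CPM on day 4 (median 55.3), without overlap. The fall was 4.11-fold (95% interval 2.24 to 7.56, edgeR adjusted p = 0.000457). In P it fell 5.24-fold (edgeR adjusted p = 4.2e-05), from 196, 87.9, 400.1, 252 and 293 CPM to between 15.1 and 97.5 CPM. In PY it fell 4.70-fold (edgeR adjusted p = 5.6e-05). In P and PY the day 0 library of experiment 3 lay below the day 4 library of experiment 4, which is the whole overlap. Junb shares 173 exonic bases with Prdx2, which stood at 128 ± 22.8 CPM on day 0 and 145 ± 30.1 CPM on day 4 in EV.

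Jund (ENSMUSG00000071076, chromosome 8, 70698949 to 70700616, plus strand) encodes the Jun protein known for steady expression in resting cells. In EV it stood at 52.5, 63.1, 35.0, 43.8 and 33.6 CPM on day 0 and between 39.3 and 64.7 CPM on day 4 (median 47.5). In P the values were 37.0, 29.2, 32.9, 27.1 and 52.1 CPM on day 0 and 20.8 to 57.8 CPM on day 4 (median 42.5), and the days overlap in all 3 transfections. Its log2 change to day 4 was 0.11 in EV, 0.21 in P and -0.11 in PY, each with an SE of 0.25 or 0.26. The 95% intervals of the fold ran from 0.75 to 1.54 in EV, 0.81 to 1.65 in P and 0.66 to 1.31 in PY, and the edgeR adjusted p was 0.795, 0.557 and 0.773. A fall as large as that of Jun lies outside these intervals in all 3. The direction turned in EV without experiment 5 and with the block, and in PY without experiment 6. Jund shares 877 exonic bases with Gm11175, which was at 0 counts in EV on days 0 and 4. Reads in shared bases may have been left out of both genes. The 0 counts therefore do not show whether the overlap altered the level of Jund.

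Egr1 (ENSMUSG00000038418, chromosome 18, 34859823 to 34864984, plus strand) and Egr2 (ENSMUSG00000037868, chromosome 10, 67535475 to 67542188, plus strand) encode zinc finger factors that bind GC-rich sites and are induced together with Fos. Egr1 stood at 147, 263, 71.4, 406 and 173 CPM on day 0 in EV and between 18.3 and 67.2 CPM on day 4 (median 38.2), without overlap. It fell 5.07-fold in EV (95% interval 2.58 to 9.99, edgeR adjusted p = 0.000323). In P it went from 220.4, 60.5, 568, 214 and 322 CPM to between 12.3 and 59.4 CPM (median 26.8), where the closest libraries, 60.5 and 59.4 CPM, are both of experiment 3. That fall was 9.23-fold (edgeR adjusted p = 3.72e-06). In PY Egr1 fell 7.04-fold (edgeR adjusted p = 1.11e-05), from a median of 198 to 27.5 CPM, without overlap. On day 2 in PY it stood at 33.1, 31.9, 133, 40.6 and 57.5 CPM, with the library of experiment 3 far above the others. The PY fall to day 2 was 3.38-fold (edgeR adjusted p = 0.00825), 5.19-fold without experiment 3 and 5.24-fold without the 2 libraries of lowest total.

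Egr2 was the only one of the 8 searched genes with a CArG box, and Egr1 was not searched. Egr2 stood at 33.9, 61.4, 7.35, 17.1 and 32.7 CPM on day 0 in EV and between 2.02 and 10.1 CPM on day 4 (median 6.86). Its fall was 4.64-fold in EV, 4.44-fold in P and 4.89-fold in PY, with edgeR adjusted p of 0.000837, 0.000729 and 0.000252. In P the libraries of day 0, at 9.58, 8.31, 13.6, 39.4 and 40.0 CPM, lay above all of day 4, which ended at 7.56 CPM. Egr2 did not share the high day 0 values of experiment 4, where it stood at 17.1 CPM in EV and 13.6 CPM in P.

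Atf3 (ENSMUSG00000026628, chromosome 1, 191170296 to 191218039, minus strand) encodes a stress-induced leucine zipper factor that can pair with Jun proteins and often represses. It stood at 33.3, 49.3, 16.6, 169 and 84.8 CPM on day 0 in EV and between 2.13 and 10.2 CPM on day 4 (median 3.77), without overlap. The fall was 14.1-fold (95% interval 5.78 to 34.2, edgeR adjusted p = 2.21e-05). Leaving out EV day 0 replicate 4 gave 9.18-fold. In P it went from 55.9, 17.4, 134, 103 and 56.0 CPM to between 2.36 and 12.4 CPM (median 6.09), 11.2-fold lower without overlap (edgeR adjusted p = 2.78e-05). PY fell 7.86-fold (edgeR adjusted p = 0.000113), from between 17.3 and 128 CPM to between 3.20 and 25.6 CPM, which became 11.8-fold when PY day 4 replicate 4 was left out. On day 2 Atf3 was already 4.95-fold lower in EV, 3.23-fold without EV day 0 replicate 4 (edgeR adjusted p = 0.0905). In P it was 4.72-fold lower, 7.51-fold without P day 2 replicate 4, and in PY 7.33-fold lower.

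Because the genes fell by different amounts, the make-up of each family's RNA moved. Per kilobase of exon (RPKM, CPM divided by the length of the merged exons), Junb had the highest level of the 10 on day 0, with group means of 103 to 109 RPKM. Fosl1 (58.6 to 83.6), Jun (54.6 to 59.5) and Egr1 (43.5 to 61.7) followed and overlap each other, then came Atf3 at 32.8 to 36.3, Jund at 21.4 to 27.3 and Fosl2 at 22 to 24.5 RPKM. Fos (8.32 to 9.61), Egr2 (6.53 to 8.98) and Fosb (1.45 to 2.08) were lowest. On day 4 Jund (22.3 to 29.5), Junb (20.4 to 25.0) and Jun (19.9 to 25.2) had like levels, Fosl2 stood at 12.0 to 13.9 and every other gene at or below 9.36 RPKM. The summed RPKM of the Fos family fell from 92.9 ± 45.3 to 23.5 ± 6.04 in EV, and that of the Jun family from 189 ± 65.8 to 79.7 ± 17.1 (SD, n = 5 and 6). Fosl2 made up 31.3% ± 12.7 of the Fos family sum in EV on day 0 and 61.5% ± 14.8 on day 4, and Fosl1 went from 58.8% ± 10.9 to 25.9% ± 15.6. In P the share of Fosl2 went from 26.7% ± 16.2 to 63.7% ± 13.4, and in PY from 28.7% ± 13.5 to 64.3% ± 16.4. Jund made up 15.6% ± 5.48 of the Jun family sum in EV on day 0 and 37.2% ± 4.28 on day 4, 12.8% ± 4.70 and 38.9% ± 7.31 in P, and 13.5% ± 4.77 and 35.7% ± 8.92 in PY. In EV the highest share of Jund on day 0, 20.7%, lay below the lowest on day 4, 31.7%, and in P 19.1% lay below 29.6%. In PY the ranges met at 21.7% and 21.4%, and those of Fosl2 overlapped in all 3. Without any 1 library, the rise in share stayed between 25.3 and 43.7 percentage points for Fosl2 and between 20.1 and 28.0 for Jund. These shares are functions of the levels above and are given with no test. Of the merged exons, 877 of 1668 bases of Jund and 1163 of 2033 of Fosl1 overlap a gene on the opposite strand. For Jun it was 232 of 3189 and for Junb 173 of 2301. How the counting treated reads there is not known. The RPKM of Jund and Fosl1, their place in the order and the family shares may therefore be off.

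**Figure D3:**
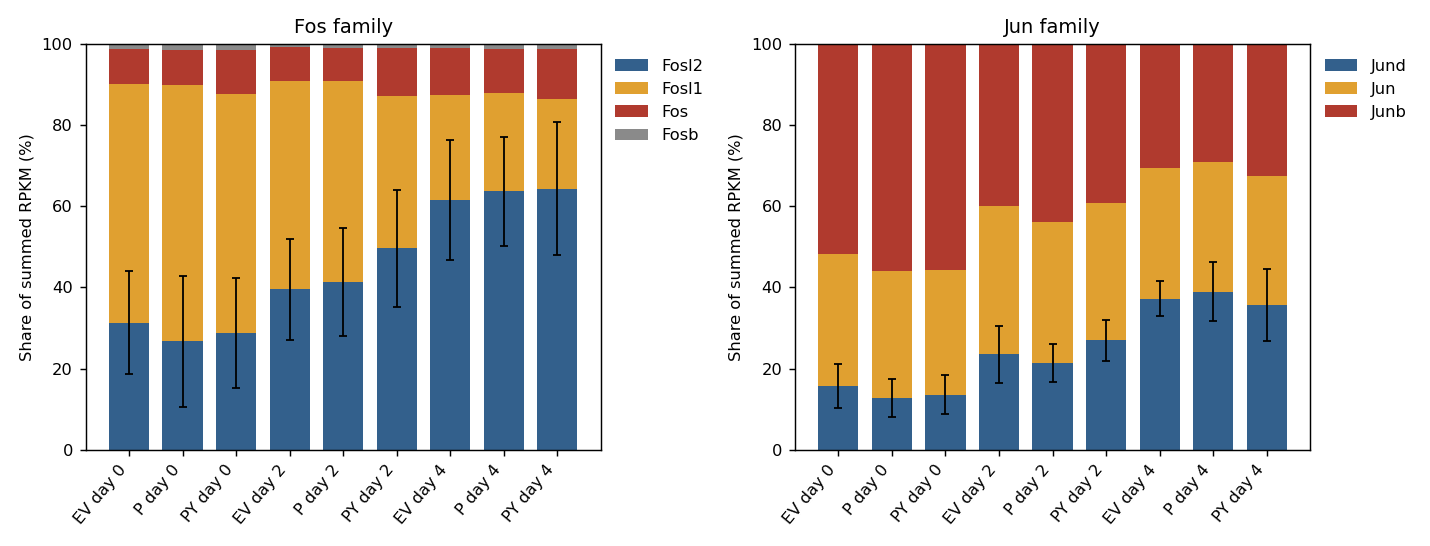
Mean share of the summed RPKM of the Fos family (left) and the Jun family (right) held by each member in each of the 9 groups, in percent. Error bars are the SD of the Fosl2 or Jund share over 5 or 6 libraries. The Fosl2 share goes from 31.3% to 61.5% and the Jund share from 15.6% to 37.2% between day 0 and day 4 in EV.

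The guides were compared within each day, to see whether switching on Pparg, or Pparg with Ybx1, altered these factors. In edgeR, 0 of the 10 passed in any of the 9 comparisons of P, PY and EV, and DESeq2 and the fit with the experiment block also passed 0. That block fits 1 offset per experiment, the same on every day, so it pairs libraries of a day only in part. No test paired by experiment within a day was run. The share of all genes that passed in either direction was 0.00588%, 2.84% and 5.38% for P against EV on days 0, 2 and 4. It was 0.047%, 4.74% and 7.83% for PY against EV, and 0.0294%, 0.0118% and 0.0176% for PY against P. With the block these shares were 0.00588%, 5.49% and 10.1%, 0.135%, 10.2% and 15.8%, and 0.0294%, 0.0235% and 0.0235%, in the same order. The smallest adjusted p of the 10 was 0.215, for Jun in PY against EV on day 2 (log2 -0.61 ± 0.26, SE), the 1 case with an unadjusted p under 0.05. Jun stood there at 65.3, 48.6, 109, 75.9 and 93.7 CPM in PY, and between 51.1 and 155 CPM in EV (median 123), so the groups overlap. PY has no day 2 library from experiment 4, which held the highest of these EV values, 155 CPM. With single libraries or experiments left out, this log2 change of Jun stayed between -0.77 and -0.47. All 10 had a negative log2 change in PY against EV on day 2 (median -0.55), as did 53.3% of all genes. The 3 transfections share libraries between these comparisons, so the values of 1 gene in them are not independent.

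On day 4 in P against EV, 9 of the 10 had a negative log2 change, as did 59.7% of all genes. The 9 ran from -0.48 ± 0.45 for Egr1 to -0.04 ± 0.61 for Fosb, with Atf3 at 0.37 ± 0.58. The smallest adjusted p in edgeR was 0.659 (Jun, -0.34 ± 0.24). Egr1 ran from 12.3 to 59.4 CPM in P and from 18.3 to 67.2 CPM in EV, which overlap over most of their range. Within experiments, Fosl2, Jun, Jund and Egr1 were lower in P than in EV in 6 of 6 and Atf3 was higher in 6 of 6. The share of all genes with the same direction in 6 of 6 was not computed, so these counts have no background. With the experiment block the smallest adjusted p of the 10 in edgeR was 0.351 (Jun). The 95% interval for Fosl2, the gene measured with the least spread, ran from -0.59 to 0.15 on the log2 scale. For Fosl1, the gene with the most, it ran from -1.78 to 1.24, which does not exclude a several-fold difference either way. In PY against EV on day 4, Atf3 was at 0.98 ± 0.58 (edgeR adjusted p = 0.421), with a median of 7.12 CPM in PY and 3.77 CPM in EV and overlapping ranges. It was higher in PY in 6 of 6 experiments, and its adjusted p with the block in edgeR was 0.170. Fosl1 on day 2 was at -1.45 ± 0.82 in PY against EV and -1.18 ± 0.81 in PY against P. PY has no day 2 library from experiment 4, in which Fosl1 stood at 194 CPM in EV and 149 CPM in P, and without that experiment the values were -0.62 and -0.47. Whether the guide differences changed between days was tested directly, for P against EV and for PY against P, from day 0 to day 2 and to day 4. Of the 10 genes, edgeR passed 0 in each of these 4 tests (smallest unadjusted p 0.205), as did DESeq2 and the fit with the block. Of all genes, 0.0588% and 0.288% passed for P against EV and 0% and 0% for PY against P, and with the block 0.094%, 1.32%, 0% and 0%.

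**Figure D4:**
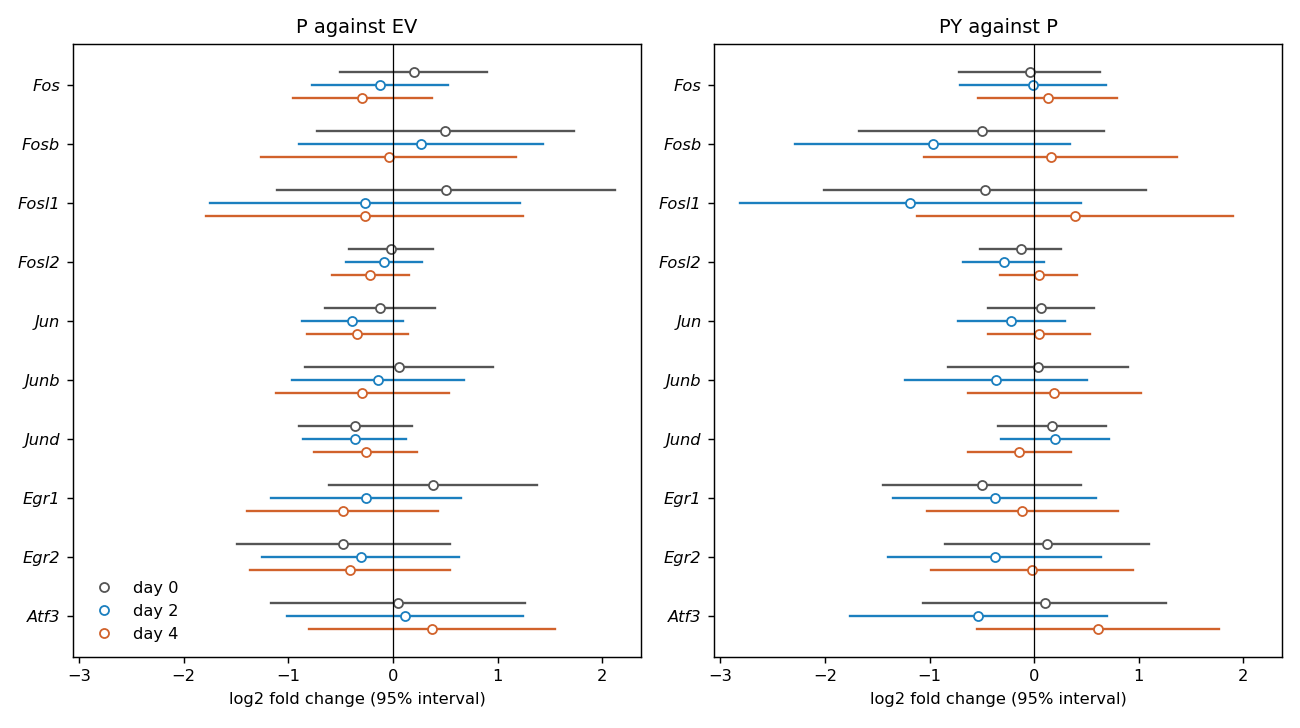
Log2 fold change of each factor for P against EV and for PY against P on each day, with 95% intervals. All points are open, since none passed at an adjusted p under 0.05, and every interval includes 0. Intervals are narrowest for Fosl2 and widest for Fosl1.

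Much of the spread within groups followed the experiment. Across the 10 genes, the combination of day and experiment accounted for 85.3% (Jund) to 93.7% (Atf3) of the within-group variance of log2 CPM, against a median of 76.2% over the tested genes. On day 0 the library of experiment 3 was the lowest of its group in 27 of 30 cases (10 genes in 3 transfections), at a median of 0.325 times the other experiments. Fosl1, for example, stood there at 36.2 CPM in EV, 23.7 in P and 24.5 in PY. The exceptions were the 3 cases of Jund, lowest in experiment 5. Experiment 4 was the highest in 17 of 30 cases on day 0, 16 of 20 on day 2 and 19 of 30 on day 4. Its Atf3 stood at 169 CPM in EV on day 0, 4.09 times the median of the other experiments, and its Fosl1 at 63.2 CPM in PY on day 4, 13.7 times. On day 2, experiment 2 was the lowest in 23 of 30 cases. Experiment 3 had the lowest median total, 11.3 M, and experiment 4 had a median of 25.7 M. The day 0 libraries of experiment 3 held 5.81 M in EV, 20.6 M in P and 4.12 M in PY. The part of depth and of other features of an experiment in these levels was not tested. In experiment 3, Atf3 in EV stood at 16.6 CPM on day 0, 23.0 on day 2 and 8.63 on day 4, and Fosl1 in EV at 36.2, 34.4 and 13.8 CPM. In that series Atf3 was no lower on day 2 than on day 0 and Fosl1 hardly lower, while both were lower on day 4. Leaving out each experiment in turn gave 9 of 10 genes passing from day 0 to day 4 in all 3 transfections.

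**Figure D5:**
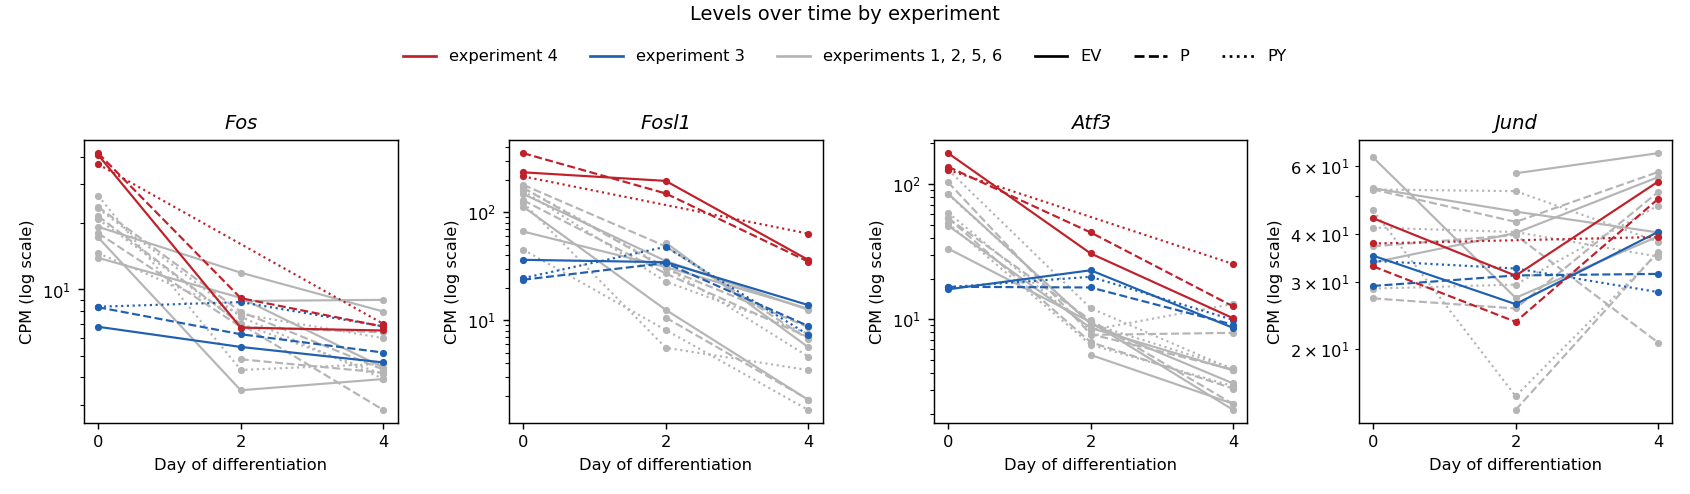
CPM on a log axis of Fos, Fosl1, Atf3 and Jund by day, with lines joining libraries of the same experiment and transfection. Experiment 4 is red, experiment 3 blue and the others grey; PY of experiment 4 has no day 2 point, so its line joins days 0 and 4. On day 0 experiments 4 and 3 lie at the top and bottom for Fos and Fosl1, and the curves close in for Fos by day 4.

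Other genes of the same response were followed by lists. Of 36 other immediate early genes, all with enough counts, 25 passed as lower and 1 as higher from day 0 to day 4 in EV, 28 as lower in P and 25 as lower in PY, with medians of log2 -1.48, -1.66 and -1.55. Of all genes, 14.9%, 18.6% and 17.8% passed as lower in these comparisons, and the counts of the other lists are to be read against the same shares. All the lists were chosen with earlier results of these data known. An excess over these shares may come from that choice and is no independent support. Gadd45b, a stress sensor, fell 4.45-fold in EV (181 ± 98.0 to 40.8 ± 20.3 CPM, n = 5 and 6, edgeR adjusted p = 0.000262), and its relative Gadd45g 4.91-fold (edgeR adjusted p = 0.000429). Ets2, a factor of growth signalling, fell 1.52-fold (edgeR adjusted p = 0.00643). Of 13 further AP-1 relatives and partners, 9 had enough counts, of which 4 fell and 1 rose in EV and 4 fell in P and in PY, with medians of log2 0.01, -0.66 and -0.60. Maff is on this list and on the immediate early list. Mafk, a small Maf protein that lacks an activating end, fell 2.97-fold in EV (edgeR adjusted p = 0.000549) and Mafg 1.53-fold (edgeR adjusted p = 0.00272). Batf2 fell 4.97-fold (edgeR adjusted p = 0.00243), at a mean of 0.863 ± 0.194 CPM on day 0. Jdp2, which pairs with Jun and represses, was at log2 0.01 ± 0.14 in EV (edgeR adjusted p = 0.978).

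Of 16 genes known as AP-1 targets, 14 had enough counts, and 8 fell in EV, 12 in P and 7 in PY, with medians of log2 -2.01, -2.33 and -1.86, again beside 14.9%, 18.6% and 17.8% of all genes. Ccl2, a chemokine, fell 8.01-fold in EV (244 to 30.6 CPM, edgeR adjusted p = 4.66e-06), Il6, a cytokine, 6.98-fold (edgeR adjusted p = 6.68e-06), and Hmox1, a heme-degrading stress enzyme, 4.84-fold (edgeR adjusted p = 6.34e-05). Sphk1, a sphingosine kinase, fell less, 1.71-fold (edgeR adjusted p = 0.0446). Ccnd1, which encodes cyclin D1, was at log2 0.14 ± 0.21 (edgeR adjusted p = 0.652) and Mmp9, a matrix protease, at -0.02 ± 0.55 (edgeR adjusted p = 0.984) in EV. All 8 stress partners of Atf3 fell in EV and 7 in P and in PY. Ppp1r15a fell 6.08-fold in EV (edgeR adjusted p = 3.33e-06) and Atf4, the factor that induces Atf3 under stress, 2.04-fold (edgeR adjusted p = 0.000268). Cebpb, which also acts early in fat cell formation, fell 2.09-fold in EV (edgeR adjusted p = 0.00393), while in P it was at log2 -0.28 ± 0.28 (edgeR adjusted p = 0.454). Of 22 upstream kinases and factors, 21 had enough counts, of which 4 fell and 2 rose in EV, 3 and 3 in P, and 3 and 2 in PY, with medians of log2 -0.02, -0.13 and -0.17. These counts are near the shares of all genes that passed as lower, 14.9%, 18.6% and 17.8%, and show nothing about the list. Among its genes, Mapk3, which encodes ERK1, rose 1.98-fold in EV (edgeR adjusted p = 0.000143), and Map2k1, which encodes its activator MEK1, fell 1.47-fold (edgeR adjusted p = 0.00568). In P against EV on day 4, 0 genes of the immediate early, partner, target and stress lists passed, and of the upstream list Spry4, an inhibitor of growth factor signalling, was 1.85-fold higher in P (edgeR adjusted p = 0.0428), where 5.38% of all genes passed. With the block, 3 immediate early genes passed as lower in P and 1, Dusp4, a phosphatase that switches off kinases of this pathway, as higher (2.33-fold, edgeR adjusted p = 0.0001 with the block and 0.135 without). Taken in either direction, this is near the share of all genes that passed with the block, 10.1%. By direction, 376 of all 17015 genes passed as lower with the block and 1347 as higher. Cebpb also passed as higher with the block (1.66-fold, edgeR adjusted p = 0.0416, and 0.135 without).

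Genes whose pattern was most like that of a factor were found by Pearson's r between mean log2 CPM over the 9 groups, among 12992 genes with a mean of at least 1 CPM. They are named for the 4 factors of widest range. For Fosl1 these were Dph2, Tex10 and Iars (r from 0.998 to 0.999), for Atf3 Zfp800, Sdad1 and Zfp202 (r from 0.996 to 0.998), for Egr1 Rrp1b, Zfp7 and U2af1 (r from 0.995 to 0.997), and for Fosb Spata2, 1810013L24Rik and Ythdf1 (r from 0.993 to 0.996). The changes of these genes were smaller than those of the factors: Dph2 went from 27.2 to 11.7 CPM from day 0 to day 4 in EV. Such likeness is common here, since between 1844 and 2386 genes had an r above 0.9 with each of the 9 factors that fell. With Jund 51 genes did. The 9 groups share experiments, and the groups differ mainly by day. Among the 10 factors, Fos and Junb followed each other closely (r = 0.985 over the 9 groups), while the r of Jund with the others lay between -0.08 and 0.22.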

How the data were processed

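Total RNA was sequenced from 51 libraries of C3H/10T1/2-SAM cells (TruSeq Stranded Ribo-Zero libraries). Gene counts were deposited by the authors as whole numbers. Tools listed in the submitters' processing notes, with no role given, are featureCounts (version 1.5.2), STAR (version 2.5.3a) and edgeR (version 3.22.0), with the build mm10. The strand setting, the annotation release and the treatment of reads with several matches are not given in the sources used here. Reads of genes that overlap on opposite strands may therefore be mixed or left out. From the counts, edgeR 4.0.16 in R 4.3.3 kept 17015 of 53801 genes (filterByExpr), scaled by TMM and fitted 9 group means over all libraries with the quasi-likelihood test, two-sided, adjusted by Benjamini-Hochberg. RPKM used merged GENCODE M21 exons, which matched 53620 identifiers. Groups came from the labels. Sharing an experiment is stated in the labels, and libraries of 1 experiment deviated together (median r of 0.364 over 192 pairs, -0.0886 over 963 other pairs). The experiment therefore served as a replicate block in an alternative fit. The main fit had no block and does not account for shared experiments. Its p-values set a difference against the spread between libraries of a group, taken as independent cultures of 1 line. Alternatives were other normalizations and filters, DESeq2 1.42.0, the block, fewer groups, and leaving out libraries or experiments. The members and gene lists were chosen with earlier results of these data known. The text describes all 10 members. From each list it names up to 3 genes, those of smallest adjusted p in P against EV on day 4 and in day 2 against day 0 of EV, and it names like genes for the 4 members of widest range. The fit was tested on simulated data.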

Additional observations from a re-analysis of the deposited data

Results flagged for a closer look

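In each of the 90 combinations of gene and group, the highest and lowest library were compared with the rest by Dixon's test at the 95% level. For normally distributed values, chance passes it in about 1 of 20 groups. It was run on CPM without a log scale, where high values stand out more readily, so that rate need not hold here. The genes also share libraries, so the 90 are not independent. Values that stood apart numbered 13, all high and 12 of them from experiment 4. For Fosl1 these were EV day 2 at 194 CPM (others 12.5 to 52.2), P day 2 at 149 CPM (10.6 to 48.2), EV day 4 at 36.1 CPM (1.83 to 13.8), P day 4 at 34.9 CPM (1.84 to 8.84) and PY day 4 at 63.2 CPM (1.48 to 7.51). For Fosb they were EV day 0 at 26.5 CPM (others 1.16 to 7.25), EV day 2 at 7.50 CPM (0.924 to 1.48), P day 2 at 8.82 CPM (0.851 to 2.16) and PY day 4 at 3.40 CPM (0.49 to 1.56). Atf3 in P on day 2 stood at 43.8 CPM (others 6.77 to 17.2). In PY on day 4, Fosl2 stood at 176 CPM (others 91.8 to 121) and Junb at 126 CPM (18.7 to 50.04). The value from experiment 3 was Egr1 in PY on day 2, at 133 CPM (others 31.9 to 57.5). No difference between groups in the effect of a guide or of a day passed its test.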

How the results depend on the processing

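From day 0 to day 4, 9 of the 10 genes passed in EV, P and PY under every alternative run, and 0 passed in the guide comparisons and in the tests of their change between days. The counts from day 0 to day 2 were less stable. In EV, 4 genes passed, against 2 with no filter on low counts, 1 with only the compared groups in the fit and 9 with the experiment as a replicate block. Leaving out single libraries or experiments gave 0 to 8 in EV, 1 to 9 in P and 6 to 9 in PY. From day 2 to day 4, where 0 passed, the block gave 4 in EV, 4 in P and 1 in PY, and leaving out libraries gave 0 to 1 in P. The block changed no other count of the 10 by over 1.5 times. The direction of Jund from day 0 to day 4 turned: its log2 change in EV was -0.018 with the block and -0.045 to 0.31 with single libraries or experiments left out, and in PY -0.24 to 0.0069. Over the log2 changes of the 10 genes from day 0 to day 4 together, 248 of 250 alternative values in EV, 250 of 250 in P and 259 of 260 in PY kept direction and side of the threshold, and the exceptions were those of Jund. From day 0 to day 2 these were 193, 226 and 240 of 250. Causes were not tested. The lowest count of the 10 genes was 3, for Fosb in 1 library, and what depth limits was not compared between genes.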
